A study of Mus musculus with 9 samples.

Results

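The genes described here encode chromatin remodelers and related ARID proteins, examined in a list of RNA regions enriched with SAFB1 (scaffold attachment factor B), a nuclear protein that binds RNA and DNA. Members were chosen by name from the mouse annotation GENCODE M21: every protein-coding gene whose symbol begins with Smarca to Smarce, Chd and a digit, Arid and a digit, or Ino80. This gave 38 of 21951 protein-coding genes. A peak was counted for a gene when its midpoint lay in the gene body on the transcribed strand (a sense peak). Of the 30998 peaks, 63 were sense peaks of members, and 17 of the 38 members held at least 1. The name rule also caught 7 ARID genes (Arid3a, Arid3b, Arid3c, Arid4a, Arid4b, Arid5a and Arid5b) whose products bind DNA or corepressors and are not subunits of a remodeling complex, so counts are also given without them.

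The 9 libraries were RIP-seq libraries, made from RNA that coprecipitated with an antibody from sonicated mouse embryonic stem cells. All groups shared the strain CAST/B6 Male Rosa26-RMCE and 3 days of doxycycline. SAFB1 antibody was used on wild-type cells (3 libraries: 1 of the parental line and 1 of each of 2 clones) and on 2 safb1/2 double-knockout (dko) clones (1 library each), and IgG on wild-type cells (2 libraries). FLAG antibody was used on 1 of those dko clones carrying an egfp plasmid (1 library) or a rescue plasmid with full-length safb1 (1 library). For this rescue library the genotype is labelled WT but the title names the dko clone, and the title was followed.

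The values come from a single deposited list of peak positions, which holds no reads per library. No comparison between antibodies or genotypes could be made for these genes, the list gives no values per replicate library, and library depth is unknown. Neither the level of each RNA nor the identity of the cells by their markers can be read from positions. The values are therefore descriptions without tests, and intervals of shares (95% Wilson) cover counting error only. Whether a gene without a peak was transcribed in these cells was not measured here.

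Chromatin remodelers are ATP-driven machines that slide, evict or exchange nucleosomes. The canonical BAF complexes combine a Smarca2 or Smarca4 ATPase with core subunits and an ARID subunit. ISWI complexes are built on Smarca1 or Smarca5, and the Ino80 ATPase has its own set of subunits. The CHD family carries chromodomains beside the ATPase. In embryonic stem cells BAF, INO80 and some CHD remodelers are known for keeping enhancers and promoters of pluripotency genes accessible.

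The peaks that lay in exons could be read as sequence, and 4 are printed because they show both ends of what was seen. The Chd6 and Smarcc1 stretches were rich in purines (A or G) against their own transcripts, the Arid4b stretch lay in an exon with peaks on both strands, and the Arid1b stretch held no match to the motifs searched. Sequences are on the transcribed strand, 5′ to 3′ and written with T, from GENCODE M21 transcripts on mm10 (GRCm38). Capitals mark 3 purine hexamers, searched on the transcribed strand only: GAAGAA, its neighbour shifted by a base, AGAAGA, and the next shift, AAGAAG, so that matches can overlap. The Smarcc1 and Arid1b stretches are all exonic bases under the peak, and the others are 300 bases around the midpoint.
Chd6 exon 3, chr2:161052455-161052754, minus strand: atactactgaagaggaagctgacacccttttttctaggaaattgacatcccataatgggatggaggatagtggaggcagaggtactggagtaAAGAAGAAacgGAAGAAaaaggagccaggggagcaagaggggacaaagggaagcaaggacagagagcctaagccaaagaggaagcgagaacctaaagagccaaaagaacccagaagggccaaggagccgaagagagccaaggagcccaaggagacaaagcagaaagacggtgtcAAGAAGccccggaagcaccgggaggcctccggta
Smarcc1 exon 11, chr9:110173881-110174005, plus strand: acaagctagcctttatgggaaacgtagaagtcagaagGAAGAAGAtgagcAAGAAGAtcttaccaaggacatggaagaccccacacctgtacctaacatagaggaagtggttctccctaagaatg
Arid4b exon 20, chr13:14187293-14187592, plus strand: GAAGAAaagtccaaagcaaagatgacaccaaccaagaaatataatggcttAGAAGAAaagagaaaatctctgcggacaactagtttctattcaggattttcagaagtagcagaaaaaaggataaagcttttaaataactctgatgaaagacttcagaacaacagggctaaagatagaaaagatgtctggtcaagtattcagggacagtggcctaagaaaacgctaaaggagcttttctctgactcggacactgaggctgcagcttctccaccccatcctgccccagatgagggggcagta
Arid1b exon 17, chr17:5334964-5335055, plus strand: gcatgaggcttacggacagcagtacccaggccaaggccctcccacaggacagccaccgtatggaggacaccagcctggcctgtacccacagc
All 4 stretches begin and end in coding sequence. The Chd6 and Smarcc1 stretches held 5 matches to the hexamers each, and that of Arid4b held 3. For comparison, 36.3% of 300-base windows across the principal transcripts of all protein-coding genes held at least 1 match, as did 17.6% of windows as long as the Smarcc1 stretch and 13.3% of windows as long as the Arid1b stretch. The hexamers were leading hexamers of exonic peaks in this same list, so a match in a member is not independent of it.

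Members held sense peaks about as often as other genes of their length. At least 1 sense peak was found in 17 of 38 members (44.7%, 30.1 to 60.3), against 26.2% of all protein-coding genes. At least 2 were found in 12 members, against 13.8% of all genes. Members are long genes, with a median of 55.6 kb against 17.4 kb, and among protein-coding genes whose length was within a factor of 0.8, either way, of each member's (called length-similar genes), 44.5% held a peak, which for 38 genes gives 16.9. The peak total was likewise close, with 63 observed and 62.9 from the means of length-similar genes. Per length of gene body, members held 20.5 peaks per Mb and all protein-coding genes 18.3. Without the 7 ARID proteins outside remodelers, 14 of 31 genes held a peak, against 14 from length-similar genes, and the density was 16.7 peaks per Mb.

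The split by length showed where the peaks sat. Of the 12 members of 100 kb or more, 10 held a peak (83.3%, 55.2 to 95.3), against 68.2% of all genes of that length. These long members held 51 of the 63 peaks, with a median of 4 peaks per gene against 2, and a density of 25.1 against 19.4 peaks per Mb. They include 2 ARID genes outside remodelers, Arid5b (12 peaks, 64.4 per Mb) and Arid4b (5 peaks, 36.7 per Mb), which raise that density. It is therefore not a value for remodeler genes alone. Of the 15 members of 30 to 100 kb, 5 held a peak (33.3%, 15.2 to 58.3), against 42.4%, and their density was 10.3 against 16.9 peaks per Mb. Of the 11 members under 30 kb, 2 held a peak (18.2%, 5.14 to 47.7), against 13.0%. All 3 background shares lay within the members' intervals.

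**Figure D1:**
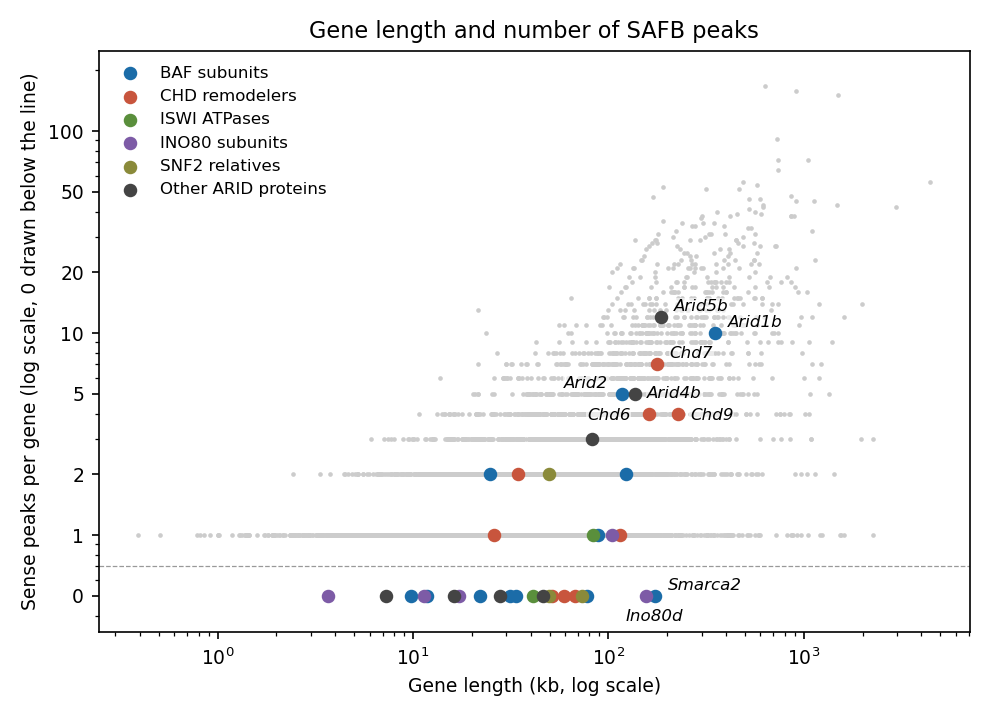
Number of sense SAFB peaks per gene against gene length, both on log scales, for protein-coding genes with at least 1 sense peak (grey) and the members (coloured by family). Members without a peak are drawn below the dashed line, and other genes without a peak are not drawn. Members with a peak lie inside the grey cloud at their length, with Arid5b (12 peaks) and Arid1b (10) highest. Smarca2 and Ino80d are the longest members without a peak.

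The families differed in peak totals for their length, with few genes in each, and less in how many genes held a peak. The 12 BAF genes held 20 peaks, 18.8 per Mb, in 5 genes, where length-similar genes gave 21.3 peaks in 5.24 genes. The 9 CHD genes held 19 peaks, 20.6 per Mb, in 6 genes, where length-similar genes gave 19.6 peaks in 4.75 genes. In peak totals both main families thus sat at the level of their length. The 5 INO80 genes held 1 peak, 3.41 per Mb, against 6.35 from length-similar genes, and the 2 ISWI ATPases held 1 against 2.12. The 3 single-protein relatives (Smarcal1, Smarcad1 and Chd1l) held 2 against 2.94. In each of these families 1 gene held a peak, where length-similar genes gave 1.74, 0.912 and 1.36 genes in that order. The 7 other ARID genes held 20 peaks, 39.7 per Mb, against 10.5 from length-similar genes. The 20 peaks lay in 3 genes, against 2.90 from length-similar genes, and 12 of them were in Arid5b. Families of this size were not tested against each other.

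**Figure D2:**
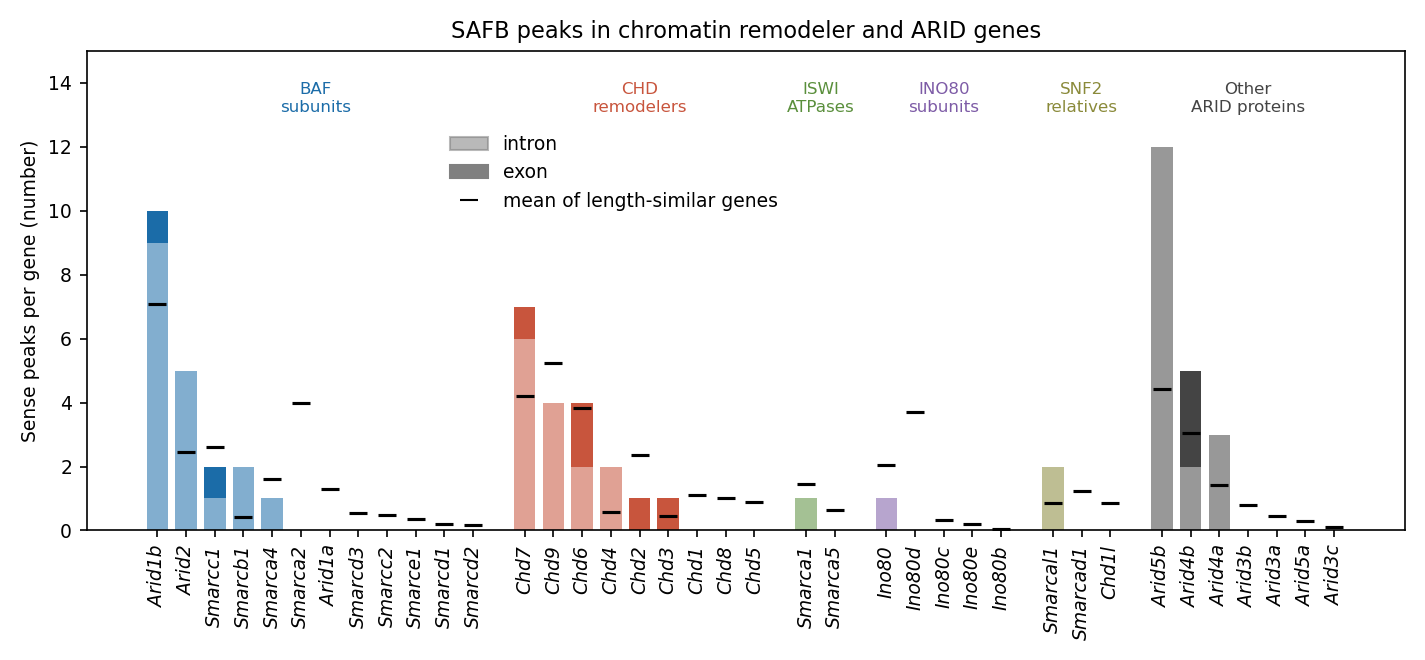
Number of sense SAFB peaks in each of the 38 members, grouped by family, with peaks in introns drawn light and those in exons dark; black bars give the mean of length-similar protein-coding genes. Arid5b, Arid1b, Chd7 and Arid2 are among the genes above their bar, and Smarca2 and Ino80d have no peak where the bar is highest among the genes without one.

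Among BAF genes the 3 ARID subunits held 15 of the 20 peaks, against 10.8 from length-similar genes. A peak was found in 2 of the 3, against 1.89 from length-similar genes. All 3 subunits carry the DNA-binding ARID domain, and the complex variants differ in which of them is present: Arid1a or Arid1b in BAF, and Arid2 in PBAF. Arid1b (chr17:4994332-5347656, plus strand), at 353 kb the longest member, held 10 sense peaks. Their midpoints lay 39.6, 40.5, 55.7, 79.4, 97.8, 124, 188, 262 and 274 kb from the gene start, all in introns 1 to 6, and 341 kb from it in coding exon 17. The peaks were thus spread along the gene, and 29.6% of 321 length-similar genes held at least as many. Its peak in intron 4, an intron of 116 kb, was the deepest of all member peaks, 54.9 kb from the nearest exon.

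Arid2 (chr15:96287518-96404992, plus strand, 117 kb) held 5 sense peaks, all intronic, and 17.4% of 1146 length-similar genes held as many. A pair of them lay in intron 4, of 6.57 kb, at 459 and 899 bases from an exon. The others lay in introns 3, 16 and 20, the last being the final intron. Arid1a, the alternative to Arid1b, held no sense peak over 77.8 kb, as did 47.2% of length-similar genes. It held 1 antisense peak of 1769 bases, with its midpoint 0.877 kb inside the gene start.

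The 2 BAF ATPases held 1 peak, against 5.60 from length-similar genes, in 1 gene against 1.28. The 7 core and shared subunits held 4 peaks in 2 genes, close to the 4.83 peaks in 2.07 genes of their length. Smarca4, the BAF ATPase known as BRG1 that embryonic stem cells depend on, held 1 peak of 381 bases, in intron 13. At least 1 was held by 58.2% of 1398 genes similar in length to Smarca4. Smarca2, the alternative ATPase known as BRM, held none over 173 kb, as did 30.2% of 729 length-similar genes. Smarcb1 (chr10), a core subunit and tumour suppressor of 24.8 kb, held 2 peaks of 1470 and 856 bases, both in intron 5 (3.96 kb), and 9.19% of 2708 length-similar genes held as many. Smarcc1 (chr9), the scaffold subunit known as BAF155, held 2 in 122 kb: a peak of 1879 bases near the gene start, 900 bases from an exon, and one over coding exon 11. At least as many were held by 49.3% of 1109 length-similar genes. Smarcc2, Smarcd1, Smarcd2, Smarcd3 and Smarce1, the remaining core subunits, held none. Their lengths run from 9.79 kb (Smarcd2) to 33.6 kb (Smarcd3), where 13.0% and 32.1% of length-similar genes held a peak.

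Among CHD genes subfamily III (Chd6 to Chd9) held 15 of the 19 peaks, close to the 14.3 of length-similar genes. Chd7 (chr4:8690406-8867659, plus strand, 177 kb), mutated in CHARGE syndrome, held 7, and 23.4% of 719 length-similar genes held as many. The first 3 lay in intron 1 (59.9 kb), the fourth over coding exon 3, and the last 3 in introns 8, 13 and 34, each within 1 kb of an exon. Chd6 (chr2:160946978-161109075, minus strand, 162 kb), a DNA-damage-responsive remodeler, held 4, a pair in intron 1 (49.0 kb) and a pair over coding exons 3 and 31. At least as many as in Chd6 were held by 36.6% of 800 length-similar genes. Chd9 (chr8:90828352-91054516, plus strand, 226 kb) held 4, all intronic, and 44.9% of 517 length-similar genes held at least as many. Its last peak, 1928 bases wide, was longer than intron 28 (1785 bases), in which its midpoint lay. Chd8, an autism-associated member of the same subfamily, held none over 59.6 kb, as did 53.5% of length-similar genes.

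Subfamily II encodes the NuRD ATPases. Chd4, the main NuRD ATPase in embryonic stem cells, held 2 peaks of 194 and 383 bases, 0.696 kb apart in intron 22 (3.09 kb), and 13.3% of 2446 length-similar genes held as many. Chd3 held 1 peak of 102 bases over exon 35 of 40. Chd5, known mainly from neurons and testis, held none. In subfamily I, Chd2 held 1 peak, over exon 2 and 1.00 kb from the gene start, where another gene of the same strand (1810026B05Rik) is also annotated. Chd1, which is needed for the open chromatin of pluripotent cells, held none over 67.6 kb.

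ISWI, INO80 and the single-protein relatives had 4 peaks between them. Smarca1, an ISWI ATPase on chromosome X, held a peak of 893 bases whose midpoint lay in intron 3, only 360 bases long, so that it reached into both neighbouring exons. At least 1 was held by 56.0% of 1451 genes similar in length to Smarca1. Smarca5, the ISWI ATPase known as SNF2H, held none over 41.0 kb, as did 64.8% of length-similar genes. The Ino80 ATPase gene (105 kb) held 1 peak in intron 1, and 63.2% of 1257 length-similar genes held at least 1. The subunit genes Ino80b, Ino80c, Ino80d and Ino80e held none. Of these Ino80d is long (156 kb), and 31.4% of 830 length-similar genes also held none. Smarcal1, which anneals DNA at stalled replication forks, held 2 narrow peaks of 139 and 83 bases in introns 9 and 16. Smarcad1, of DNA end resection, and Chd1l, activated by poly(ADP-ribose), held none.

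Among the other ARID genes Arid5b, a DNA-binding coregulator that recruits the demethylase PHF2, held the most sense peaks of any member. The gene (chr10:68092520-68278740, minus strand, 186 kb) held 12, all in introns, and 9.04% of 675 length-similar genes held as many, against a mean of 4.43. Intron 4 (50.9 kb) held 7 of them and intron 3 (56.7 kb) held 3. A cluster of 4 lay at 100, 102, 103 and 103 kb from the gene start, with gaps of 1.50, 0.895 and 0.881 kb between midpoints, and a further pair was 0.614 kb apart. That pair was the closest among the 46 gaps between neighbouring member peaks, of which the median was 17.7 kb and 8 were within 2 kb.

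Arid4a and Arid4b, paralogs in the SIN3 histone deacetylase corepressor, differed in where their peaks lay. Arid4b (chr13:14063232-14199603, plus strand, 136 kb) held 5, of which 3 were over coding exons 14, 16 and 20, the most exonic peaks of any member. Arid4a (chr12, 82.6 kb) held 3, all intronic, including the widest member peak, of 3068 bases, which had its midpoint in the last intron and reached into the last exon. Arid3a, Arid3b, Arid3c and Arid5a held none, with lengths from 7.31 to 46.4 kb. The 21 members without a sense peak comprised 2 of 100 kb or more, 5 of 50 to 100 kb and 14 under 50 kb.

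**Figure D3:**
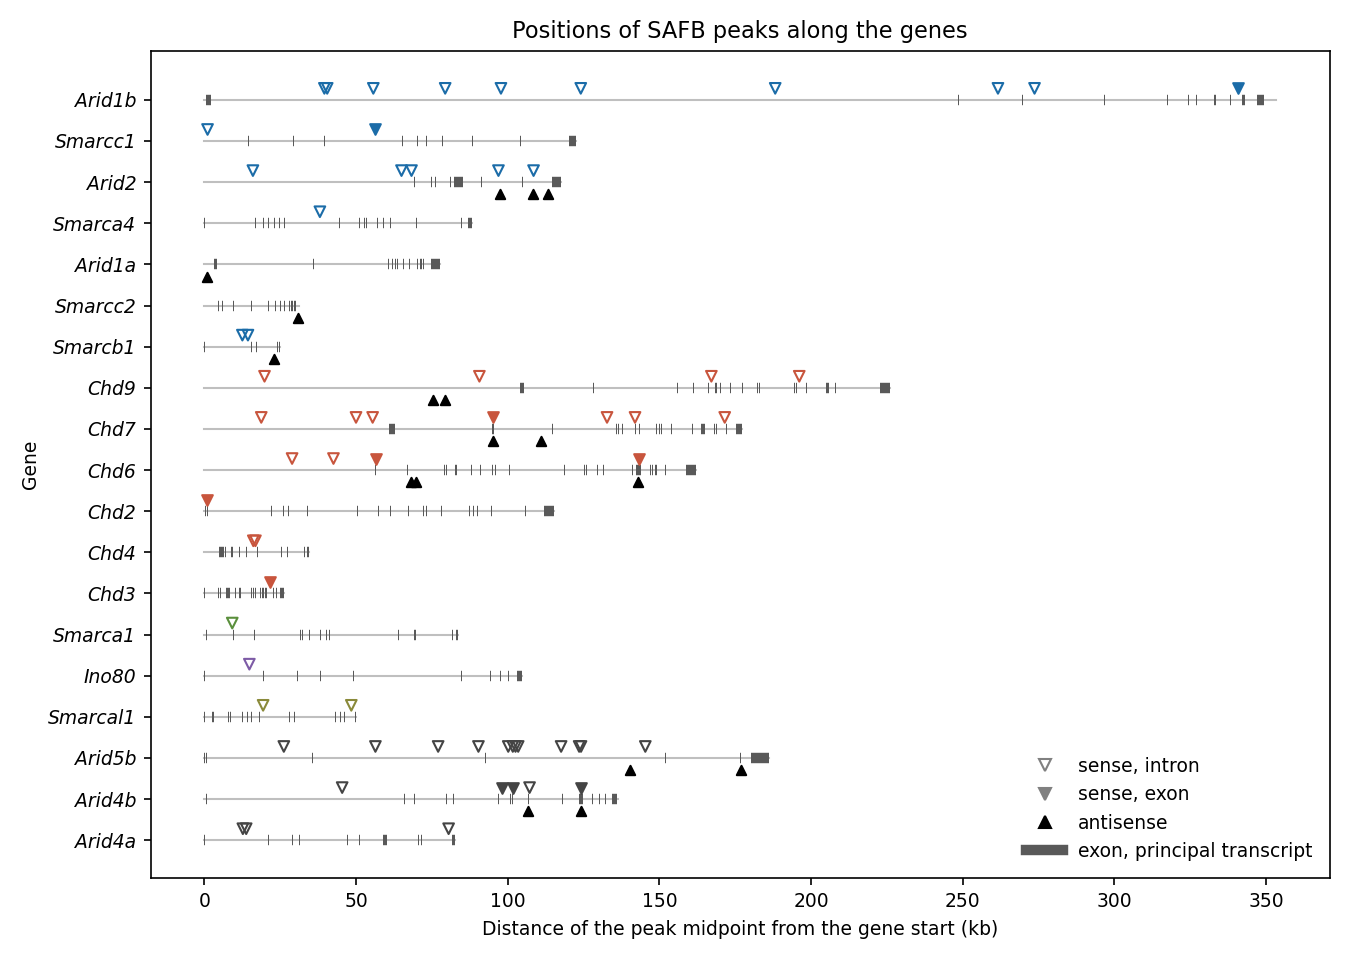
Positions of peak midpoints along the 19 members with a sense or antisense peak, in kb from the gene start; open triangles are sense peaks in introns, filled coloured triangles sense peaks in exons, black triangles below the line antisense peaks, and dark boxes exons of the principal transcript. Peaks were spread along Arid1b, clustered within Arid5b intron 4, and met on both strands in Chd6, Chd7, Arid2 and Arid4b.

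Most member peaks were intronic, in a proportion close to that of all genes. By midpoint, introns held 53 of the 63 peaks and exons 10 (15.9%, 8.86 to 26.8), against 14.6% in exons over all protein-coding genes (2884 of 19691 pairs of peak and gene). Exons made up 9.26% of the length of the members, weighted by their peaks, so the exonic share was 1.72 times the share of length, against 1.56 times in all genes. Intronic member peaks had a median width of 674 bases, against 647 in all genes, and lay a median of 5.26 kb from the nearest exon, against 5.50 kb. Peaks over 10 kb from an exon were 12 of 53 (22.6%, 13.5 to 35.5), against 36.8% in all genes, which include genes far longer than any member. With each gene divided into 4 equal stretches from its start, 15, 16, 18 and 14 of the 63 peaks fell in them, an even spread.

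**Figure D4:**
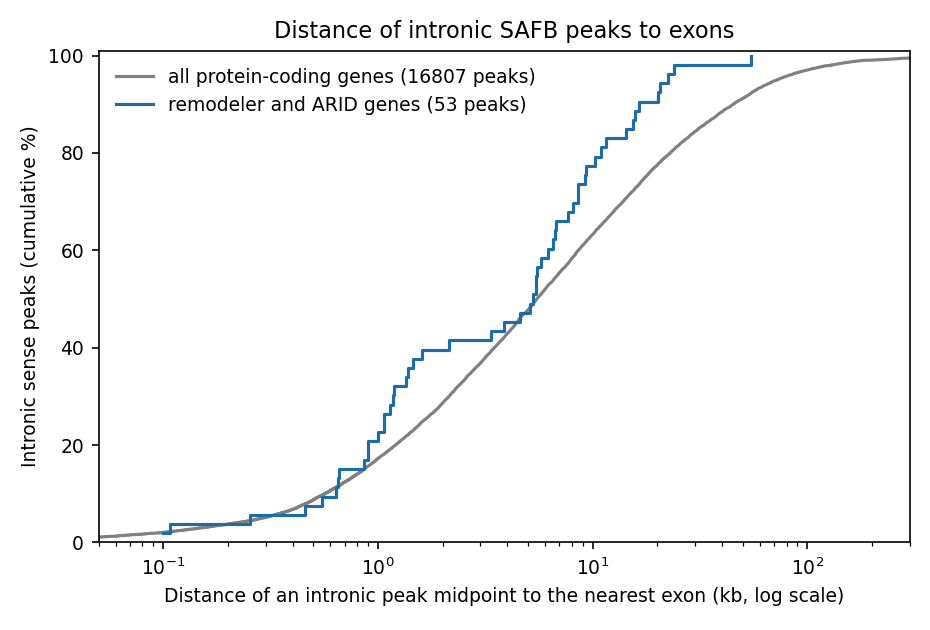
Cumulative share of intronic sense peaks by distance of the midpoint to the nearest exon (kb, log scale), for members (blue, 53 peaks) and all protein-coding genes (grey, 16807 peaks). The member line lies above the grey one at 1 kb (22.6% against 17.2%), meets it near the medians of 5.26 and 5.50 kb, and leaves 22.6% against 36.8% of peaks beyond 10 kb.

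The 10 exonic peaks, in 7 members, all had their midpoint in coding sequence (72.2 to 100%), against 53.6% of exonic peaks in all protein-coding genes (1545 of 2884). Each was set against the exon, among those of all protein-coding transcripts of its gene, that matched its extent best. Each then covered at least 90% of that exon, against 48.2% of 2350 exonic peaks in all genes treated alike, a limit chosen after the values were seen. For the peak over Arid4b exon 16 this depends on the transcript, since a shorter Arid4b transcript has an exon of 1574 bases there that holds the whole 270-base peak. The exons under member peaks were also shorter, with a median of 154.5 bases against 1047, so a peak of a given width covers more of them. The peak over Chd6 exon 31 shared 1565 of that exon's 1572 bases and was 1569 wide, and the peak over Arid4b exon 20 shared 1201 of 1215 bases and was 1222 wide. Both peaks thus had nearly the extent of a long exon. The peaks over Arid1b exon 17 (100 bases over 97), Chd3 exon 35 (102 over 109) and Chd6 exon 3 (559 over 518) were also near the exon in width. Others reached well beyond it: 54.1% of the Smarcc1 peak (231 bases over 125), 64.3% of the Chd2 peak (207 over 133), 65.2% of the peak over Arid4b exon 16 (270 over 176) and 74.8% of that over exon 14 (131 over 98) lay in the exon. Exonic member peaks were narrower (median 250.5 bases) than those of all genes (771).

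**Figure D5:**
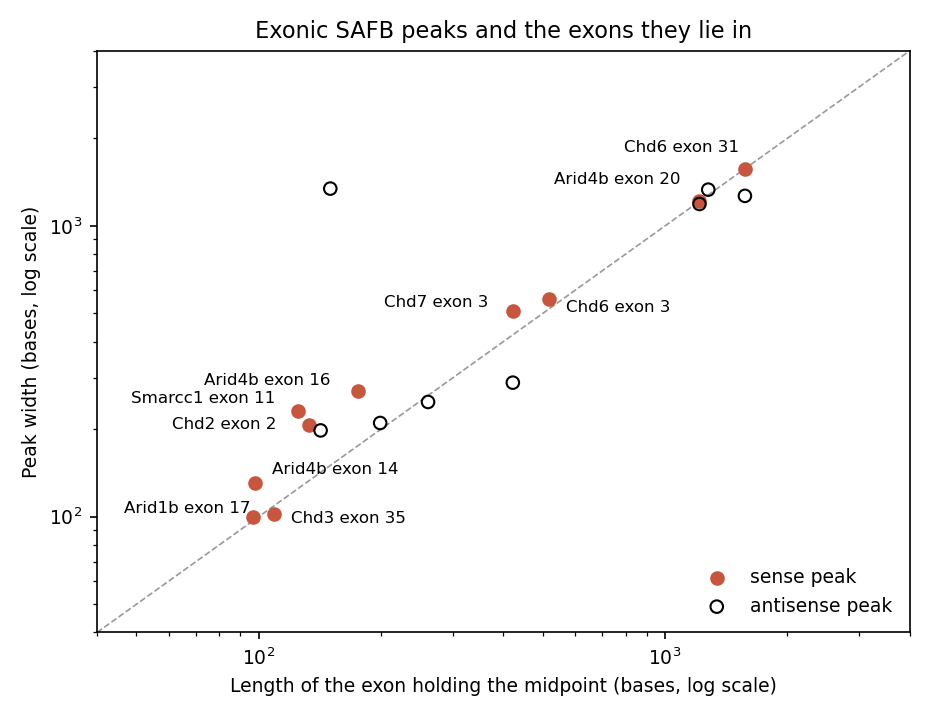
Width of each exonic peak of the members against the length of the exon that holds its midpoint (bases, both on log scales), for sense peaks (filled, named) and antisense peaks (open); the dashed line marks equal size. Sense peaks over Arid1b exon 17, Chd3 exon 35, Chd6 exons 3 and 31 and Arid4b exon 20 lie near the line, those over Smarcc1 exon 11 (231 bases over 125), Chd2 exon 2 and Arid4b exon 16 lie well above it, and 1 antisense peak, 1343 bases over a 150-base exon of Chd6, lies far above it.

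The exonic bases under member peaks held more purines than the transcripts around them. A and G made up 59.2% of the 4501 bases, against 54.2% of the whole transcripts they came from. The same contrast over all protein-coding genes was 53.6% against 52.0%. A higher share than the peak's own transcript was found for 8 of the 10 member peaks, against 70.5% of peaks in all genes. All 10 member peaks had their midpoint in coding sequence, as did 53.6% of exonic peaks in all genes, while whole transcripts include untranslated bases. Coding and untranslated bases were not compared separately, so the contrast cannot be assigned to the peaks alone. Chd6 exon 3 stood 11.0 percentage points above its transcript and Smarcc1 exon 11 stood 10.5 above. Sequence from both is printed above, each stretch with 5 matches to the 3 hexamers, where overlapping matches in one run are counted separately. Arid4b exon 14 and Chd3 exon 35 lay below their transcripts, by -2.20 and -0.0979 points. The hexamers occurred 10.7 times per kb under member peaks and 6.45 times per kb in their transcripts, with 4.84 and 3.37 in all genes. Because the hexamers were leading ones of exonic peaks in this same list, a higher density under peaks is not independent of that choice. Matches were present in 6 of 10 member peaks and in 72.7% of all exonic peaks, which were longer (median 622.5 exonic bases against 201.5).

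Antisense peaks, on the strand opposite to the gene, numbered 17 in 9 members, against 12.5% of all protein-coding genes with at least 1. Length-similar genes, of which 18.0% held one, gave 12.3 antisense peaks in 6.86 genes. The sense strand therefore held 78.8% of the 80 peaks in members (68.6 to 86.3), against 80.7% in all genes. Chd6 and Arid2 held 3 each, Chd7, Chd9, Arid4b and Arid5b 2 each, and Arid1a, Smarcb1 and Smarcc2 1 each. Coding sequence held 7 of the 17 antisense peaks (41.2%, 21.6 to 64.0), against 13.5% in all genes. Of the 17, 6 overlapped a sense peak (35.3%, 17.3 to 58.7), against 19.5% in all genes, and all 6 lay wholly within the sense peak.

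The pairs differed in how much of the sense peak was covered. Over Arid4b exon 20 the antisense peak was 1189 bases wide and covered 97.9% of the exon, inside the sense peak of 1222. Over Chd6 exon 31 the antisense peak of 1268 bases covered 80.7% of the exon, and over Chd7 exon 3 the antisense peak of 289 bases covered 68.5%, inside sense peaks of 1569 and 509 bases. The other 3 antisense peaks were 248 bases within 1138 at Arid4b exon 17, and 280 within 1558 and 701 within 1330 in introns 16 and 20 of Arid2. The list holds no reads, so the level on each strand is not known.

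Beyond the gene body, peaks near members lay downstream on the sense strand or upstream on the antisense strand. Within 3 kb past the gene end, 6 of 38 members had a sense peak, against 6.92% of all protein-coding genes. They were Arid1b (2490 bases past the end), Arid2 (489 and 1474), Arid4b (1571 and 2625), Chd6 (1191), Smarca1 (2735) and Smarcc2 (975, over Myl6 of the other strand). Within 3 kb upstream of the start, 7 members had an antisense peak, against 3.91% of all genes. They were Smarcb1 (194 bases from the start), Chd3 (1636) and Ino80 (2175), with no gene annotated at the peak, Ino80d (121), Chd6 (849) and Ino80e (1208), where Ino80dos, Gm45447 and Hirip3 are annotated on the peak's strand, and Smarcd1 (1043, over Asic1 of the other strand). No member had a sense peak upstream or an antisense peak downstream in these windows, where 1.78% and 2.70% of all genes did. These backgrounds are genes of all lengths, while members are longer (median 55.6 against 17.4 kb), and shares of length-similar genes are not given for these windows. Transcription was not measured here, so the background could not be limited to transcribed genes. The higher shares near members can therefore not be read as a trait of remodeler genes.

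The Smarcb1 peak, 1002 bases wide (chr10:75921310-75922311, plus strand), covered the whole 250 bases before the Smarcb1 start, and that sequence is shown because an antisense peak with no annotated gene lay over it. It is from RefSeq (GRCm38.p6), 5′ to 3′ on the Smarcb1 strand, with CG dinucleotides in capitals.
Smarcb1 upstream bases, chr10:75921615-75921864, minus strand: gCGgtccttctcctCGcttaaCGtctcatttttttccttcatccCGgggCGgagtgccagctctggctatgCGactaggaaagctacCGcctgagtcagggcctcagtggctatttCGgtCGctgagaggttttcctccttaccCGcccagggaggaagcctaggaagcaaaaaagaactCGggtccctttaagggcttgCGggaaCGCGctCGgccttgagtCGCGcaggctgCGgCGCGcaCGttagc
It held 21 CG dinucleotides and 59.6% G or C. At least as many CG were found in 16.3% of 32851 such upstream stretches, whose median was 6, while the 28 members found in the table had a median of 21. A CG-rich start was thus common among members and does not set this gene apart.

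Partner genes, whose products join the same complexes or carry related helicases, held peaks in 30 of 66, against 24.5 from length-similar genes, with 62 peaks where length-similar genes gave 70.9. Their density was 16.7 peaks per Mb, close to the 16.7 of the members without the other ARID genes. ISWI partners held 15 peaks in 5 of 9 genes, led by the bromodomain subunits Baz2b (6) and Baz1a (5), where length-similar genes gave 17.5 peaks in 4.2 genes. The other ISWI partners with peaks were Rsf1 (2, with 6 antisense), Bptf (1) and Cecr2 (1). BAF partners held peaks in 9 of 18 genes (6.75 from length-similar genes), led by Bcl11a (4), Bicral (3), Bicra (2), Bcl11b (1) and Bcl7a (1). Their peak total was 15, against 19.7 from length-similar genes. NuRD partners held 8 peaks (9.02 from length-similar genes) in 4 of 12 genes (4.01): Mbd2 (4), Mta3 (2), Cdk2ap1 (1) and Hdac2 (1). The INO80, SRCAP and TIP60 partners held 7 peaks (8.85) in 6 of 17 genes (4.39), led by Trrap (2), with Actr8, Kat5, Vps72 and Yy1 at 1 each. Other SNF2 helicases held 17 peaks (15.8) in 6 of 10 genes (5.20), led by Zranb3 (6), Ercc6l2 (5) and Ercc6 (3), with Btaf1 and Hltf at 1 each.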

How the data were processed

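RIP-seq was performed on mouse embryonic stem cells (9 libraries, 5 groups). The authors deposited 1 headerless list of 30998 stranded peaks (6 columns: position, name, score, strand). Every peak has the same deposited score, 500, which was not used. The positions the authors deposited are on mm10. The submitters' processing notes name mm10, STAR, Subread and featureCounts, without versions. The peak caller, its thresholds and any pooling of libraries are not stated in the labels or the file. A wild-type label, but no library, stands in each peak's name. Depth is unknown, and the planned comparisons between groups could not be run, so no p-values are given.

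Starts were taken as counted from 0, which no source states. Peaks were assigned by midpoint to gene bodies of GENCODE M21 (55450 genes) on the same strand. Exons of all transcripts counted as exonic. The principal transcript was the protein-coding transcript with the longest coding sequence. Length-similar genes were the protein-coding genes, other than members, whose length was within a factor of 0.8, either way. Intervals are 95% Wilson intervals. Placement of peaks was tested on simulated data. Sequence came from GENCODE M21 transcripts and RefSeq promoters (GRCm38.p6, 28 of 38 members matched). The sequence of intronic peaks was not used here. Of the 10 exonic member peaks, sequence is shown for 4. Work was done in Python 3.11.15 with numpy 2.4.6, pandas 2.3.3, scipy 1.17.1 and matplotlib 3.10.9.

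Every member with a sense peak is named with its count, members without one are named in groups, and of each partner class up to 5 genes with most sense peaks are named, ties in alphabetical order. The members, the partner lists and the hexamers were chosen with earlier results of these data known. The limit of 90% for exon coverage, the windows beside genes and the neighbouring antisense genes were chosen after their values were seen. Alternatives covered the assignment of peaks, the width limit, the length range, Arid1b left out and the definition of exons.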

Additional observations from a re-analysis of the deposited data

How the results depend on the processing

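Of 24 alternative settings over 8 results, 16 left the value within its interval or, for counts, within 1.5 times, and 8 did not. With peaks narrower than the median peak left out, members held 30 sense peaks in 12 genes, the exonic share was 6.67% (2 of 30), and 35.4% of length-similar genes held a peak. With at least 2 peaks per gene, 12 members, 28.3% of length-similar genes and 12 partner genes remained. When any overlap with an exon counted, the exonic share of member peaks was 27.0%, and with length-similar genes taken within 0.5 to 2 times the length their share with a peak was 42.8%. Only 1 exonic member peak lay wholly inside 1 exon, an exon of a shorter Arid4b transcript, and its purine share was 57.0%. Without Arid1b, members held 53 sense peaks, 17.0% of them in exons. No paired analysis was possible because the peak list gives no value per library. The main limits are that the list has no replicates, no depth and no RNA levels, and that members were compared with genes of similar length but not of similar transcription.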

Other observations

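The peak names carry running numbers whose meaning no source states, and the numbers on member peaks reach 166227 in a list of 30998 peaks. Between its first and last peak, Arid1b held 10 peaks over 148 consecutive numbers (6.76%), Chd9 held 4 over 89 (4.49%) and Chd6 held 4 over 55 (7.27%). Arid5b held 12 over 52 (23.1%), and the pairs in Chd4 and Smarcb1 had neighbouring numbers. Over the 1325 protein-coding genes with at least 4 sense peaks the median was 21.4%, with quartiles of 13.6 and 34.8%.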
